A study of Mus musculus with 2 samples.

Results

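The immunity-related GTPase (Irg) family was followed in mouse sarcoma cells by the 7 genes Irgm1, Irgm2, Igtp, Ifi47, Tgtp1, Tgtp2 and Iigp1, out of 25509 genes in the deposited count table. The members were taken by gene symbol. The family had been selected on the difference between these same libraries, so its fold changes below are a description and no test was made on them. One RNA-seq library came from cells transduced with shcircCsnk1g3, a lentiviral hairpin aimed at the backsplice junction of the circular RNA circCsnk1g3, and the other from cells with the control hairpin shCTR. Both came from C57BL/6 mesenchymal cells that lacked p53 and overexpressed Ccne1, had grown as a subcutaneous tumor and then as foci in the lungs of a further host, and were transduced after recovery from those foci. The mesenchymal cells had been sorted as negative for CD45, CD31 and Ter119 and positive for Sca1 and PDGFRa. There was 1 library per hairpin, so no replicate error could be estimated, and silencing could not be told apart from any other difference between the 2 cultures.

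Irg proteins are large GTPases that many mouse cells make in response to interferon. They coat the vacuoles in which intracellular parasites and bacteria live and help to break them. The family falls into 2 groups by the first nucleotide-binding motif, called GMS or GKS after its residues. The GMS proteins Irgm1, Irgm2 and Irgm3 (encoded by Igtp) sit on the cell's own membranes and hold the GKS proteins in the inactive, GDP-bound state. The GKS proteins, which include Irgb6 (encoded by Tgtp1 and Tgtp2), Irgd (encoded by Ifi47) and Irga6 (encoded by Iigp1), are the effectors that load onto the vacuole. Interferon gamma acts on such promoters through the gamma-activated site (GAS) and through IRF factors at the interferon-stimulated response element (ISRE). Type I interferon acts mainly through the ISRE.

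Because the members differed in their counts, the promoter sequences are shown first for those 6 with a RefSeq entry (GRCm38.p6). Each window ran from 250 bases before to 50 after the annotated start and was searched on both strands for the ISRE core GAAANNGAA, for that core followed by a further A, and for the GAS core TTCNNNGAA. In the stretches below, written 5′ to 3′ on the strand of the gene, capitals mark the GAS and the ISRE with its further A. No motif was found in the Ifi47 window, and its 150 bases before the start are given for comparison. The stretches are chr11:48871421-48871480 (minus strand) for Irgm1, chr11:58214883-58214942 (plus) for Irgm2, chr11:58199492-58199551 (plus) for Igtp, chr11:48992294-48992353 (minus) for Tgtp1, chr11:49064253-49064312 (minus) for Tgtp2 and chr11:49076437-49076586 (plus) for Ifi47.
Irgm1: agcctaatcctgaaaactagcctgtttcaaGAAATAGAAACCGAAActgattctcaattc
Irgm2: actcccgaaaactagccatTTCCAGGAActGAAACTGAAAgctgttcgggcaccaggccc
Igtp: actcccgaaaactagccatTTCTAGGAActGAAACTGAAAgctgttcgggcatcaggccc
Tgtp1: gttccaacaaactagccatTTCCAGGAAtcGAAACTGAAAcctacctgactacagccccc
Tgtp2: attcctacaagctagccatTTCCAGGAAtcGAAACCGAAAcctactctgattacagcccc
Ifi47: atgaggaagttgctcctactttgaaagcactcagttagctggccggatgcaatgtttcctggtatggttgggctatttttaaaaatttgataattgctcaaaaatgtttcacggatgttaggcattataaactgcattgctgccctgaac

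The ISRE with its further A was present in 5 of these 6 windows, against 3.44% of all 32851 mouse promoters of the same length (8.56% for the core alone). A GAS was present in 4 of 6, against 8.30% of all promoters. In Irgm2, Igtp, Tgtp1 and Tgtp2 the GAS came first, on the same strand, and exactly 2 bases separated it from the ISRE, although the distance of the ISRE from the start ranged from -77 in Tgtp1 to -34 in Igtp. A search for this arrangement, chosen after the member windows had been read, found it in 5 of the 32851 promoters (0.0152%). These were the 4 members and Gm12185, another Irg-like gene. The RefSeq window of Gm12185 (chr11:48927133-48927432, minus strand) is apart from that of Tgtp1 (chr11:48992197-48992496), although the GENCODE exons of the genes overlap on the same strand. The Irgm1 window had a different layout, with 2 ISRE matches that overlap, starting at -30 and -24, and no GAS. The stricter palindromic GAS spelling TTCCNGGAA was found in Irgm2, Tgtp1 and Tgtp2 but not in Igtp (3 of 6 members, 1.15% of all promoters). The windows of Irgm2 and Igtp were 72.8% identical and those of Tgtp1 and Tgtp2 67.0%, and all other pairs lay between 43.2% and 50.5%, so the 4 windows with both motifs are not independent examples. For Ifi47, 4 of the 5 GENCODE M21 transcripts start 10113 to 11677 bases downstream of the RefSeq start, outside the window searched. Of the 3 Tgtp1 transcripts in that annotation, all start upstream of the RefSeq start, as does 1 of the 3 Irgm1 transcripts. A match of letters is a description and does not show that a factor was bound in these cells.

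**Figure D1:**
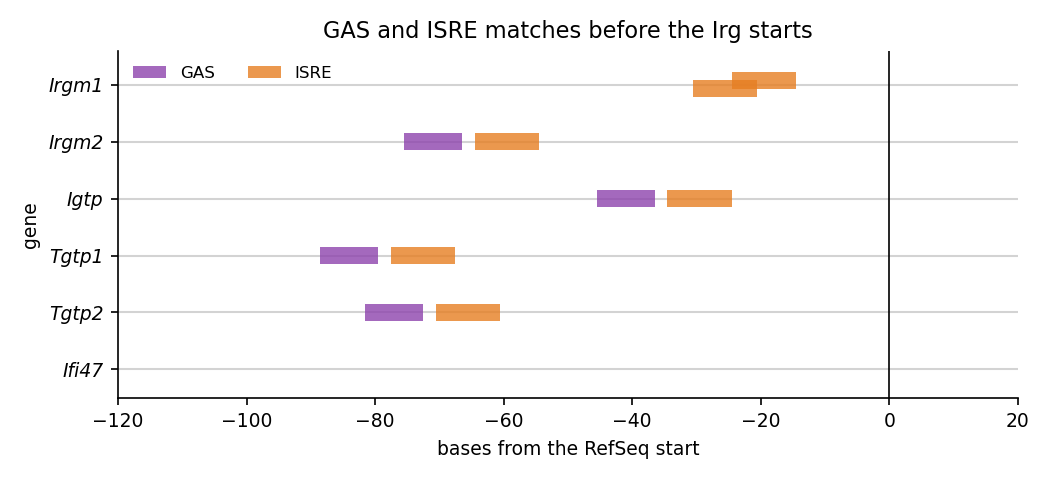
Position of each GAS (purple) and each ISRE with its further A (orange) before the RefSeq start (0) of the 6 Irg genes with a promoter entry; the x axis is in bases and each line is 1 gene. In Irgm2, Igtp, Tgtp1 and Tgtp2 the 2 motifs stand side by side with 2 bases between them, and Irgm1 has 2 overlapping ISRE matches. Ifi47 has neither motif in the window searched, which leaves out the downstream starts of most of its transcripts.

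Level and fold change were computed from estimated read counts. The libraries held 38792143 (shcircCsnk1g3) and 42709996 (shCTR) counts. Levels are given as CPM, the usual depth-scaled unit, after TMM scaling, which gives each library its own effective size. Log2 fold changes of shcircCsnk1g3 over shCTR had a prior count of 2 added. After each stands the exact 95% interval of its count ratio, by the Clopper-Pearson method. It covers counting error only and compares 2 libraries rather than 2 conditions. Its half-width was 0.60 on the log2 scale for a gene with 50 counts in each library and 0.29 with 200. Of the 7 members, 5 had at least 10 counts in 1 library, the limit for comparison, and Tgtp1 and Iigp1 did not. In bulk RNA, more cells that express a gene and more RNA per cell cannot be told apart. At least 2-fold higher were 2 of the 5 (Irgm2 and Igtp), where 2.13% of all 12941 genes compared were, and none was at least 2-fold lower (2.55% of all genes). The interval lay above 0 for 4 of the 5 members (26.9% of all genes) and below 0 for none (28.2%). Since the family was chosen on this contrast, nothing is read from these counts against their background. The median log2 fold change of the 5 members compared was 0.85, and that of all genes compared was 0.00. Over all 7 members, with the 2 under the count limit included, it was 0.77.

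**Figure D2:**
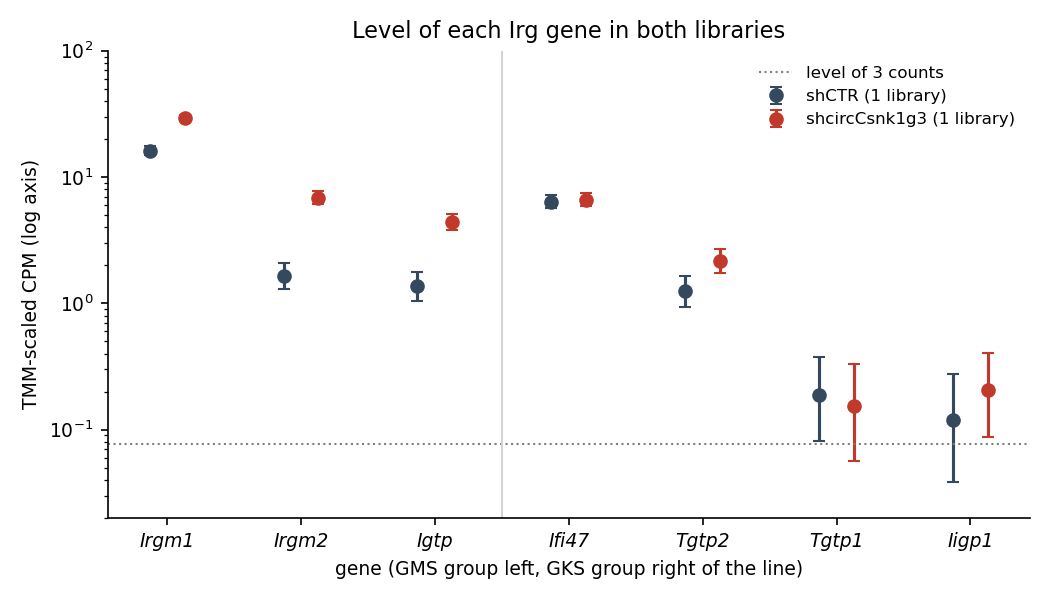
TMM-scaled CPM (log axis) of the 7 Irg genes in the shCTR (dark) and shcircCsnk1g3 (red) library, 1 library each, with exact 95% Poisson intervals as bars and the level of 3 counts as a dotted line. Irgm1, Irgm2, Igtp and Tgtp2 stand higher in the shcircCsnk1g3 library with bars that do not overlap, Ifi47 stands at the same height in both, and Tgtp1 and Iigp1 lie close to the dotted line.

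The 3 GMS regulators carried most of the difference. Irgm1, which is known to act on autophagy and mitochondria as well as on its relatives, had the highest count of the family in both libraries. Irgm1 (ENSMUSG00000046879, chromosome 11, 48861968 to 48871683, minus strand, GRCm38) had 1151 counts after shcircCsnk1g3 and 686 with shCTR. These are 29.4 and 16.2 CPM, a log2 fold change of 0.85 (0.72 to 0.99), or 1.81-fold. Under TMM scaling its interval ended just below 2-fold, and scaling by housekeeping genes gave a higher log2 fold change of 0.94. Among the 10662 genes whose summed count reached 200, 88 had a larger log2 fold change.

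Irgm2, which is linked to the control of inflammasome responses to bacterial lipopolysaccharide, had the highest fold change among the 5 members compared, with an interval that overlapped that of Igtp. Irgm2 (ENSMUSG00000069874, chromosome 11, 58199618 to 58222782, plus strand) had 269 counts against 70, or 6.86 against 1.66 CPM. Its log2 fold change was 2.02 (1.67 to 2.45), a ratio of 4.14, and 3 of the 10662 genes with at least 200 summed counts stood above it. Igtp (ENSMUSG00000078853, chromosome 11, 58199556 to 58207591, plus strand), which encodes Irgm3, a regulator found on the endoplasmic reticulum and lipid droplets, had 173 counts against 58. That is 4.41 against 1.37 CPM and a log2 fold change of 1.65 (1.25 to 2.14). Of the same 10662 genes, 15 stood above it. Both genes were thus low in the control library and well above it in the other.

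The Igtp and Irgm2 genes overlap on the same strand. They share 162 exon bases, 8.01% of the exon bases of Igtp and 4.39% of those of Irgm2, because 1 of the 3 annotated Irgm2 transcripts begins at 58199618, inside Igtp, far upstream of the RefSeq start of Irgm2. Of all 50-base stretches in the Igtp transcripts, 11.8% also occur in Irgm2 transcripts, so a small part of the reads of this pair could be assigned to either gene. Summed, the pair had 442 counts against 128, a log2 fold change of 1.88 (1.61 to 2.19), which does not rest on that division.

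Ifi47 stood apart from the regulators. It encodes Irgd, an interferon-induced GKS GTPase. Ifi47 (ENSMUSG00000078920, chromosome 11, 49076587 to 49096974, plus strand) had 260 counts after shcircCsnk1g3 and 270 with shCTR, or 6.63 and 6.39 CPM. The log2 fold change was 0.05 (-0.20 to 0.30), an interval that leaves out a change of 1.5-fold or more in these 2 libraries by counting error alone. It shares 111 exon bases with the olfactory receptor gene Olfr56 on the same strand, 4.49% of its exon bases, and Olfr56 had 21 and 23 counts.

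Tgtp1 and Tgtp2 encode Irgb6, among the first GKS proteins to reach the vacuole of Toxoplasma. Tgtp2 (ENSMUSG00000078921, chromosome 11, 49057194 to 49064206, minus strand) had 85 counts against 53, or 2.17 against 1.25 CPM, a log2 fold change of 0.77 (0.28 to 1.31). Tgtp1 (ENSMUSG00000078922, chromosome 11, 48985327 to 48994172, minus strand) had 6 counts against 8, with a wide interval of -2.11 to 1.41, and no difference was detectable at this depth. The division between them is uncertain. Of the 50-base stretches of Tgtp1 transcripts, 79.4% also occur in Tgtp2, and 85.8% in the other direction, and the predicted proteins are identical over all 415 residues. Counted as 1 gene they had 91 counts against 61, a log2 fold change of 0.67 (0.20 to 1.18).

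Iigp1, which encodes Irga6, the best studied effector of the family, was close to the limit of detection. Iigp1 (ENSMUSG00000054072, chromosome 18, 60376027 to 60392634, plus strand) had 8 counts after shcircCsnk1g3 and 5 with shCTR, or 0.204 and 0.118 CPM, where 3 counts correspond to 0.0765 and 0.0710 CPM. The interval of its log2 fold change ran from -1.01 to 2.74 and gave no direction. It is the only member outside chromosome 11, where Irgm1, Tgtp1, Tgtp2 and Ifi47 lie within 235 kb and the Igtp and Irgm2 pair lies 9100 kb further on.

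**Figure D3:**
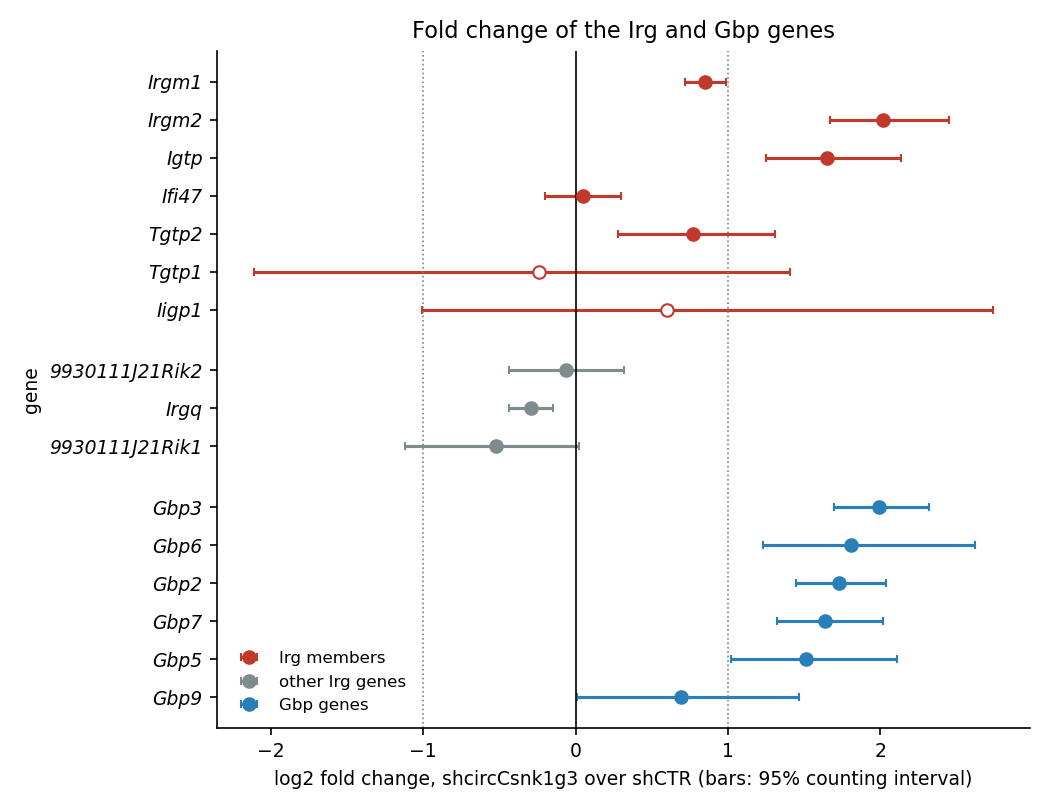
Log2 fold change of shcircCsnk1g3 over shCTR for the 7 Irg members (red), 3 other Irg genes (grey) and 6 guanylate-binding protein genes (blue), with 95% counting intervals as bars, dotted lines at a 2-fold change and open points for genes under the count limit. Irgm2 and Igtp stand with most Gbp genes beyond the 2-fold line, Ifi47 lies on 0, and the 3 other Irg genes lie below 0.

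Summed by group, the GMS genes had a larger fold change than the GKS genes, and Ifi47 decided how far apart the groups stood. The 3 GMS genes together had 1593 counts against 814, a log2 fold change of 1.07 (0.95 to 1.20). The 4 GKS genes had 359 against 336, a log2 fold change of 0.20 (-0.02 to 0.42). The ratio of GMS to GKS counts was 1.83 times higher in the shcircCsnk1g3 library (exact 95% interval 1.54 to 2.18). Ifi47 held most of the GKS counts. Without it, a setting added after the values were seen, the other 3 GKS genes had 99 counts against 66, a log2 fold change of 0.68 (0.23 to 1.16), and the ratio of GMS to GKS counts was 1.30 times higher, with an interval that includes 1 (0.930 to 1.82). Such a ratio is taken within each library and so does not depend on the scaling between libraries, but like the single values it describes 1 library of each kind and was chosen with earlier results of these data known.

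The fold changes of the members are set against each other here as a description of these 2 libraries, with intervals for counting error and no test. Relative to Irgm1, Irgm2 was 2.29 times higher in the shcircCsnk1g3 library (1.72 to 3.07) and Igtp 1.78 times higher (1.29 to 2.47). Irgm2 and Igtp differed from each other by 1.29 times, with an interval that includes 1 (0.848 to 1.95). Relative to Ifi47, Irgm1 was 1.74 times higher (1.43 to 2.13), Tgtp2 1.66 times (1.12 to 2.50) and Irgm2 3.98 times (2.89 to 5.54). Irgm1 over Tgtp2 was at 1.05 times, and the interval of 0.718 to 1.51 leaves room for a difference in either direction.

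As a whole the family had 1952 counts after shcircCsnk1g3 and 1150 with shCTR, for a log2 fold change of 0.87 (0.76 to 0.98). Without Irgm1, the member with the most counts, the sum was 801 against 464, with 0.89 (0.73 to 1.06). The make-up of the family counts differed between the libraries. Irgm1 held 59.0% of them in the shcircCsnk1g3 library (exact binomial 95% interval 56.7% to 61.2%) and 59.7% in shCTR (56.8% to 62.5%). Irgm2 held 13.8% (12.3% to 15.4%) against 6.09% (4.78% to 7.63%), and Igtp 8.86% (7.64% to 10.2%) against 5.04% (3.85% to 6.47%). Ifi47, the second member by counts in shCTR with 23.5% (21.1% to 26.0%), held 13.3% (11.8% to 14.9%) in the other library. The shares of Tgtp2 were 4.35% and 4.61%, and Tgtp1 and Iigp1 each held less than 1% in both.

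**Figure D4:**
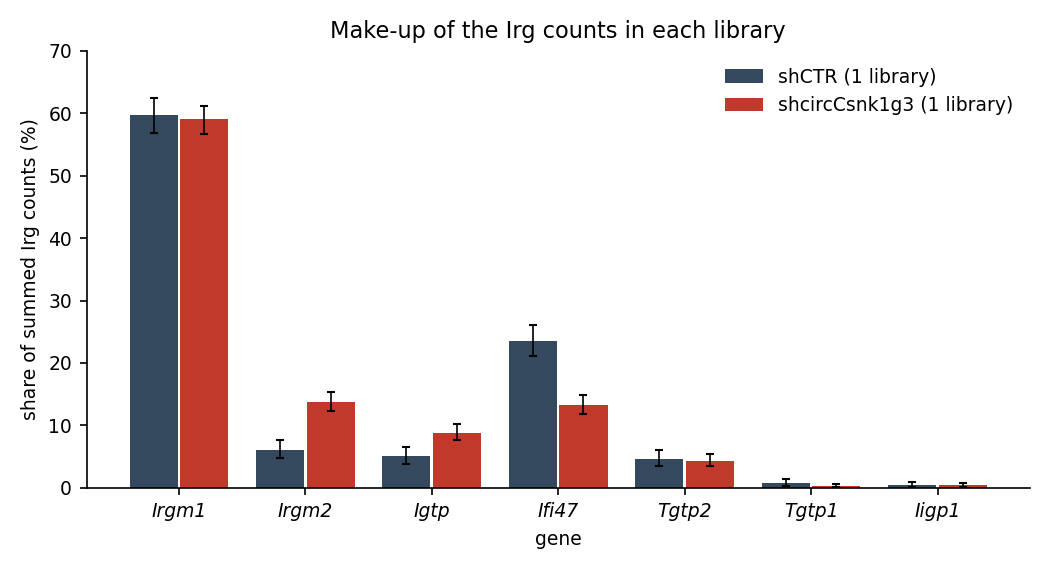
Share of the summed Irg counts (percent, axis from 0) held by each gene in the shCTR (dark) and shcircCsnk1g3 (red) library, with exact binomial 95% intervals as bars. Irgm1 holds close to 60% in both, Irgm2 and Igtp hold more in the shcircCsnk1g3 library, and Ifi47 goes from 23.5% in shCTR to 13.3%.

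Levels between genes were compared per kb of exon. In the shCTR library Irgm1 stood at 2.79 CPM per kb (2.59 to 3.01) and Ifi47 at 2.58 (2.29 to 2.91), whose intervals overlap, so these 2 were not separated. Igtp followed at 0.679 CPM per kb (0.516 to 0.878), Irgm2 at 0.449 (0.350 to 0.567) and Tgtp2 at 0.427 (0.320 to 0.558), with overlap between neighbours, and Tgtp1 and Iigp1 were lowest at 0.0591 and 0.0203. In the shcircCsnk1g3 library Irgm1 was alone at the top with 5.05 CPM per kb (4.76 to 5.35). Ifi47 at 2.68 (2.36 to 3.03) and Igtp at 2.18 (1.87 to 2.53) overlapped there, as did Igtp and Irgm2 at 1.86 (1.64 to 2.09). Tgtp2 stood below them at 0.738 CPM per kb (0.589 to 0.912), and Tgtp1 and Iigp1 at 0.0477 and 0.0350. The order of the 7 was the same in both libraries, and the intervals of Ifi47 and Igtp were apart in the control library and met in the other.

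The predicted proteins, read from the longest open reading frames of the GENCODE M21 transcripts, had 407 to 423 residues and held the GMS motif in 3 and the GKS motif in 4. Irgm1, Irgm2 and Igtp were 46.3% to 49.8% identical to one another. The GKS proteins were 39.1% to 42.7% identical, apart from the Tgtp pair, and identity across the groups was 26.7% to 30.0%. Igtp and Irgm2, the closest pair by promoter, were also the closest GMS pair in protein.

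Of 9 further Irg genes in the table, 3 reached the count limit, none of these 3 was 2-fold higher, and their median log2 fold change was -0.29. Irgq, a distant relative classed as a quasi-GTPase, had 688 counts against 909, a log2 fold change of -0.29 (-0.44 to -0.15). The tandem genes 9930111J21Rik1 and 9930111J21Rik2 had 44 against 69 counts (-0.52, -1.12 to 0.02) and 113 against 127 (-0.06, -0.44 to 0.32). The first of them has an ISRE with the further A in its promoter window, so this motif was also present in an Irg gene that was not higher. Gm12185, whose RefSeq window holds the same motif pair as those of the 4 members, had 7 counts against 2, too few for a comparison, and 5 genes were at 0 in both libraries.

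The guanylate-binding proteins (Gbp), the other family of interferon-inducible GTPases that act on pathogen vacuoles, were higher too. The table held 11 Gbp rows, among them a second row of Gbp6 with 0 and 1 counts. Of these rows, 6 reached the count limit, 5 were at least 2-fold higher, and the intervals of all 6 lay above 0. Their median log2 fold change was 1.69. Of all genes compared, 2.13% were at least 2-fold higher and 26.9% had an interval above 0. Gbp3 had 421 counts against 113, a log2 fold change of 1.99 (1.70 to 2.32). Gbp2, which loads onto the vacuole of Toxoplasma, had 398 against 128 (1.73, 1.45 to 2.04), and Gbp7 had 271 against 92 (1.64, 1.32 to 2.02). Over the 6 genes compared the values ran from 0.69 to 1.99. Igtp (1.65), Irgm1 (0.85) and Tgtp2 (0.77) lay within this range, Irgm2 (2.02) just above it and Ifi47 (0.05) below it. The summed Gbp counts of 1334 against 433 gave 1.73 (1.57 to 1.89).

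**Figure D5:**
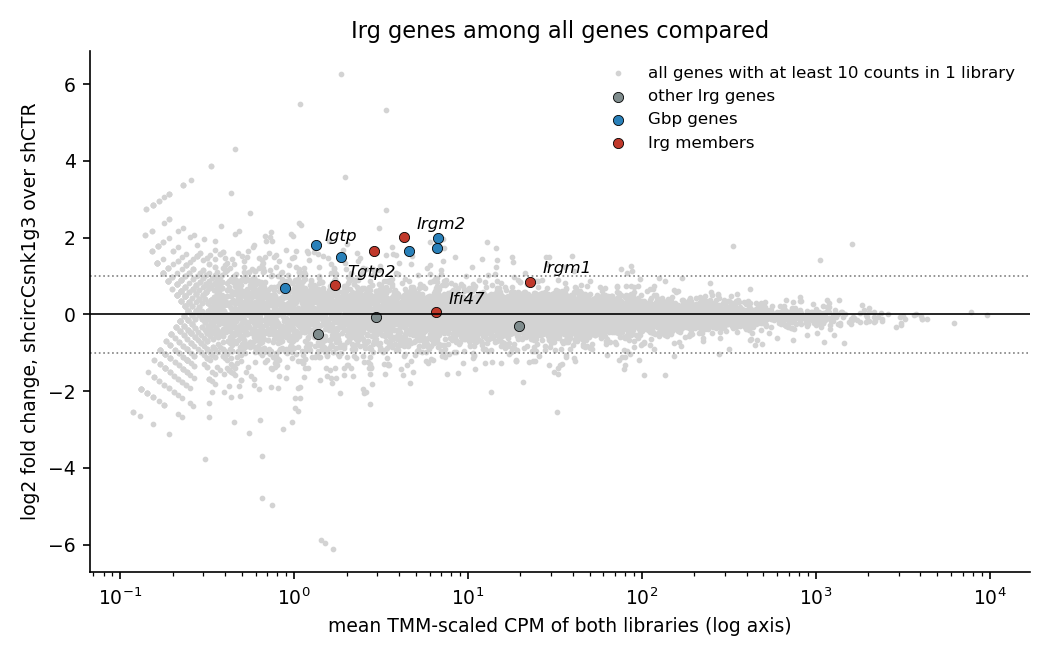
Log2 fold change of shcircCsnk1g3 over shCTR against mean TMM-scaled CPM (log axis) for all 12941 genes compared (light grey), with Irg members in red, other Irg genes in dark grey and Gbp genes in blue; dotted lines mark a 2-fold change. Irgm2, Igtp and 5 Gbp genes lie above the upper line, in a range of levels where few genes do, and Irgm1 lies just under it.

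The receptors and signalling genes through which interferon gamma acts were close to level. Of 12 such genes compared, none was 2-fold higher or lower, 5 had intervals above 0 and 4 below (26.9% and 28.2% of all genes), and the median log2 fold change was 0.04. The receptor chains Ifngr1 (1072 against 1106 counts, 0.06, -0.06 to 0.18) and Ifngr2 (1011 against 1119, -0.04, -0.16 to 0.09) did not differ beyond counting error. The kinases Jak1 (9206 against 10656, -0.10, -0.14 to -0.06) and Jak2 (716 against 655, 0.24, 0.08 to 0.39) lay on opposite sides of 0. The transcription factor Irf1 was higher, with 2093 counts against 1669 and a log2 fold change of 0.43 (0.34 to 0.53). Socs1, the feedback inhibitor of JAK kinases, was lower, with 326 counts against 482 (-0.45, -0.66 to -0.25). Irf8 had 2 counts and 0.

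Of 10 genes of type I interferon reception and signalling, 3 were at least 2-fold higher (2.13% of all genes) and the median log2 fold change was 0.35. The intervals of 6 lay above 0 and of 2 below (26.9% and 28.2% of all genes). Named after their values were seen, the 3 were Usp18 (1.89), Irf7 (1.29) and Irf9 (1.14). The receptor chains Ifnar1 (-0.12) and Ifnar2 (0.15) and the kinase Tyk2 (0.16) were close to level. This list shares members with the one before, Jak1 among them. Of 14 interferon gamma targets outside the GTPases, 1 was at least 2-fold higher, the intervals of 8 lay above 0 (26.9% of all genes) and of none below, and the median was 0.14. All 8 interferon genes had at most 3 counts in both libraries. Ifng had 0 counts in both libraries, Ifnb1 had 1 in each, and 7 of 8 interferon genes were at 0 in both.

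Irg proteins need the ATG8 conjugation machinery to reach the vacuole in an ordered way. Of 17 autophagy and ubiquitin genes of this process, 1 was at least 2-fold higher and none lower, 7 intervals lay above 0 and 4 below (26.9% and 28.2% of all genes), and the median was 0.04. Atg5 had 1058 counts against 993 (log2 fold change 0.20, 0.07 to 0.33), Atg3 had 1315 against 1481 (-0.06, -0.17 to 0.04), and Atg7 had 790 against 1055 (-0.31, -0.44 to -0.18). Of the other conjugation genes on the list, Atg12 stood at 0.33 (0.22 to 0.44) and Atg16l1 at 0.04 (-0.06 to 0.15). The extremes of the list, named after their values were seen, were Trim21, an antibody receptor and ubiquitin ligase, at 1.48 (1.05 to 2.0), and Ulk1, a kinase that starts autophagy, at -0.91 (-1.03 to -0.80).

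Over all genes with a promoter window, 24 of the 348 with an ISRE and its further A were at least 2-fold higher (6.90%), against 126 of 9244 without it (1.36%). Without the Irg members the first share was 22 of 344 (6.40%). For the GAS, with or without an ISRE, the shares were 10 of 803 (1.25%) with and 140 of 8789 (1.59%) without. For the stricter GAS spelling they were 3 of 149 (2.01%) and 147 of 9443 (1.56%), or 2 of 147 (1.36%) with the members left out. Of 759 genes with a GAS and no such ISRE 6 were at least 2-fold higher (0.791%). Of 44 genes with both motifs anywhere in the window, 4 were at least 2-fold higher (9.09%), and without the members 2 of 41 (4.88%). The share was higher with the ISRE than without it, also when the members were left out, and for neither GAS spelling was it higher once they were left out. These shares are given without a test.

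The 5 genes outside the family closest to its summed log2 fold change of 0.87, among 7700 genes with at least 1551 summed counts, were Vldlr (0.87), Stat2 (0.88), Limk1 (0.86), Trib3 (0.86) and Dusp8 (0.85). The likeness is that of a single difference between 2 libraries.

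Markers of the labelled cell type were present. Of 14 mesenchymal markers 13 were compared, with Thy1 at 0 and 1 counts, and their summed level was 13400 CPM (shcircCsnk1g3) and 14200 CPM (shCTR). Single markers differed between the libraries, with 10 of the 13 intervals below 0 and 2 above (28.2% and 26.9% of all genes) and a median log2 fold change of -0.14. Ly6a, which encodes the sorting marker Sca1, had 1854 counts against 3223 (-0.69, -0.77 to -0.61). The part of this difference in the Irg values was not tested. Leukocytes, which respond strongly to interferon, can be a source of Irg transcripts. Of 16 leukocyte marker rows, 13 had at most 3 counts in both libraries and 9 were at 0 in both, among them Adgre1, Itgam, Lyz2 and Cd3e, and Ptprc had 1 and 0 counts. The summed leukocyte list stood at 49.4 CPM and 45.9 CPM, nearly all of it Cd14 (1844 and 1774 counts), and Cd68 was lower in the shcircCsnk1g3 library with 87 against 155 counts. Of 6 lung epithelial markers 5 were at 0 in both libraries, and no endothelial marker had more than 16 counts. Csnk1g3, the host gene of the targeted circular RNA, had 2159 and 2411 counts (-0.05, -0.14 to 0.03), which stand for the linear transcript since circular RNA has no poly(A) tail. Trp53 had 3841 and 4334 counts although the cells are labelled p53-/-, and gene counts do not show whether the transcript was intact. Ccne1 had 893 and 963 counts. Transcripts of the ribosomal RNA locus, Yam1 (1.84) and Gm42418 (1.42), and Lars2 (1.79) were also higher in the shcircCsnk1g3 library, and the part of this library difference in the Irg values was not tested; leaving them out of the scaling left the log2 fold change of the summed Irg counts at 0.87.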

How the data were processed

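Poly(A) RNA of 2 cultures was sequenced from TruSeq Stranded mRNA libraries on a NovaSeq instrument. For alignment to GRCm38 the authors used STAR, and RSEM for counting. The deposited table holds the resulting estimated counts, rounded and not normalized, and whether counting used the strand is not given in the sources used here. RSEM divides reads shared by similar genes, which matters for Tgtp1 and Tgtp2. In the other deposited table, the authors give a TMM-scaled signal, each column being the counts times 1 constant. It served only as an alternative.

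Here, TMM factors came from edgeR 4.0.16 (R 4.3.3) restricted to genes reaching 10 counts in either library. Fold changes and intervals used python 3.11.15, numpy 2.4.6, pandas 2.3.3 and scipy 1.17.1, figures matplotlib 3.10.9, protein alignments biopython. With 1 library per group no test was made, and 3 counts served as the detection floor. Ratios of ratios are conditional odds ratios with exact intervals. The steps were run on simulated Poisson counts. These had no variation between cultures, so the run could not show how far such variation affects the intervals. Intervals cover counting error only, since reads carried no molecular identifiers.

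The members and gene lists were chosen with earlier results of these data known. Named genes were all members, the further Irg genes with at least 10 counts, fixed genes of interferon and autophagy function, and the 5 genes nearest in fold change. One gene named by this rule is not reported here. Irf8, Olfr56, Gm12185, genes of type I signalling, the marker genes and the ribosomal RNA locus transcripts are named beside these as checks, some after their values were seen. Coordinates and transcripts are from GENCODE M21, in which 25251 of the 25509 genes were found, and promoters from RefSeq on GRCm38.p6, with an entry for 6 of the 7 members. Alternatives were DESeq2 1.42.0 size factors, total counts, housekeeping genes, scaling without ribosomal RNA locus transcripts, other prior counts, filters and thresholds, Tgtp1 and Tgtp2 as 1 gene, other gene lengths and stricter motifs. The search for adjoining motifs, the GKS sum without Ifi47 and the GAS without an ISRE were added after seeing the data.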

Additional observations from a re-analysis of the deposited data

How the results depend on the processing

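No paired analysis was possible because each hairpin had 1 library, and for the same reason no replicate could be left out. All 60 values of single members under the alternatives stayed within their own counting intervals. Irgm1 ranged from 0.84 to 0.94, Irgm2 from 1.90 to 2.11, Igtp from 1.52 to 1.74, Ifi47 from 0.05 to 0.14 and Tgtp2 from 0.67 to 0.86 on the log2 scale. The summed counts ranged from 0.86 to 0.96 and the median of the members from 0.69 to 1.25, the last over the 4 members with at least 200 summed counts. Under scaling by housekeeping genes the median of all genes was 0.094.

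The number of members past the threshold was 4 at 1.5-fold and 1 (Irgm2) at 4-fold. The 275 genes at least 2-fold higher became 698 at 1.5-fold and 49 at 4-fold, 150 with a prior count of 10, 732 without a count filter, 60 at a minimum of 200 summed counts, and 107 when taken from the deposited TMM-scaled values, which holds fewer genes. With the longest transcript as length, Tgtp1 and Iigp1 (2 members) changed places in the shcircCsnk1g3 order. With the mean transcript length 3 members, Tgtp2, Igtp and Irgm2, took other places in the shCTR order. So the order of these members depends on the length used, and their gaps were not tested against counting error. Per length, Irgm1 held 40.1% of the family in shcircCsnk1g3 and 39.8% in shCTR. The stricter motif spellings gave 5 promoters for the ISRE and 3 for the GAS. Depth limits Tgtp1 and Iigp1, and with 10 counts in each library only a change beyond 1.42 on the log2 scale would leave the interval.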
